A study of Mus musculus with 4 samples.

Results

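The genes described here are the 5 subunits of the transcription factor NF-kB (Nfkb1, Nfkb2, Rel, Rela and Relb) and 5 of its inhibitors (Nfkbia, Nfkbib, Nfkbie, Nfkbiz and Tnfaip3), 10 genes of the 34866 in the deposited table. They were chosen by name, and each symbol matched 1 gene identifier in GENCODE M21 on GRCm38. The cells were lymphoma cells from the spleens of 2 λ-MYC Tom+/ki mice, which carry the λ-MYC transgene (a human MYC gene under immunoglobulin λ regulatory sequences), 1 AicdaCre knock-in allele and 1 Rosa26 tdTomato allele. Cre is expressed from the gene of activation-induced deaminase (AID), so Tomato (Tom) marks cells with present or past AID expression, and a Tom- cell may still express other markers of activation. B220+ IgM+ cells of each mouse were separated by sorting into a Tom- and a Tom+ population and sequenced, 1 library for each population of tumor #1 and of tumor #2, 4 in all. All 4 libraries carry the transgene and both alleles, no library from a mouse without the transgene was analysed here, and the age of each mouse is not given in the sources used here.

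NF-kB proteins bind DNA as dimers of Rel subunits. In resting cells the dimers are held in the cytoplasm by IkB proteins, which are degraded after phosphorylation by the IkB kinase (IKK). In B cells this canonical route is engaged by the B cell receptor. A second route, which follows the BAFF receptor and CD40, uses the kinase NIK to process the Nfkb2 product and release dimers with RelB. NF-kB supports the survival of mature B cells, and it induces several of its own inhibitors, among them IkBα and the ubiquitin-editing enzyme A20, which form a negative feedback.

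Levels are in TPM (transcripts per 1000000), a measure that is corrected for transcript length, so that genes can be compared within a library. TPM keeps no read counts, so the depth is unknown and no counting error can be given. Differences are on the scale log2(TPM + 1), which understates those of genes with a low TPM. A gene was tested if 2 or more libraries reached 1 TPM, which 11339 genes did, all 10 members among them. Of them, 5 reached 1 TPM in all 4 libraries, while Nfkbie and Tnfaip3 passed through the libraries of tumor #2 alone. All 8 B cell markers examined were above 1 TPM in every library. Among markers of other cells, Cd3e of T cells and Csf1r of macrophages were at no more than 0.069 TPM, and C1qa (macrophages), Ly6g (neutrophils) and Ncr1 (NK cells) were listed at 0 in all libraries. Other markers of these lists reached the levels of the members. Lck of the T cell list was at 4.25 to 11.5 TPM and Cd3d at up to 7.77 TPM. Ly6c2 of the monocyte list was at 10.5 to 21.1 TPM, Cd68 at 1.92 to 6.41 TPM, and the erythroid gene Hbb-bs at up to 18.8 TPM. In sorted bulk RNA, fewer cells that express a gene and less RNA per cell cannot be told apart.

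The promoters of these genes are shown because several of them are textbook targets of NF-kB itself. RefSeq windows on GRCm38.p6, from 250 bases before to 50 bases after a transcription start, were at hand for 7 of the 10 genes, and for Nfkb1, Relb and Nfkbiz none was used. Both strands were searched for the kappaB consensus, a motif of 10 bases made of 3 G, a purine, any 2 bases, 2 pyrimidines and 2 C. It was present in 5 of the 7 genes (Nfkb2, Rel, Nfkbia, Nfkbie and Tnfaip3) and absent from the windows of Rela and Nfkbib, while 9.55% of all 27025 genes with a window and 11.9% of the tested ones held it in at least 1 window (8.46% of 32851 windows). A match describes the sequence and is no evidence of binding. The stretches below are upstream of the most upstream RefSeq start among the windows at hand. They run 5′ to 3′ on the strand of the gene, with every base of a match in capitals. The GENCODE loci of Nfkb2, Tnfaip3 and Nfkbib begin further upstream, so their stretches lie inside the loci, and that of Rela spans the start of its locus. For Nfkb2 and Nfkbib the windows do not reach the GENCODE start, where the motif was not searched. They run from 30 bases before the first match to at most 30 bases after the last, or over the last 100 bases before the start for the 2 genes without a match.
Nfkbia (chr12:55492648-55492706, minus strand): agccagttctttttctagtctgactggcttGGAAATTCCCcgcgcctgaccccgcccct
Tnfaip3 (chr10:19015411-19015565, minus strand): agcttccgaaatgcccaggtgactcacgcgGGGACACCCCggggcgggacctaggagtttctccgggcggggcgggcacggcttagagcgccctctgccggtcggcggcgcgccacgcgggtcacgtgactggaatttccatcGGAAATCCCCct
Nfkbie (chr17:45555564-45555633, plus strand): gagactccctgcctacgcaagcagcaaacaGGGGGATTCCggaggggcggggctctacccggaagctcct
Nfkb2 (chr19:46304668-46304736, plus strand): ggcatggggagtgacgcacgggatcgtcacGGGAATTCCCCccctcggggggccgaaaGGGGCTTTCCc
Rel (chr11:23771021-23771091, minus strand): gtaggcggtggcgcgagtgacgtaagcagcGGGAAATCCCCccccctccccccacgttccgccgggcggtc
Rela (chr19:5637441-5637540, plus strand): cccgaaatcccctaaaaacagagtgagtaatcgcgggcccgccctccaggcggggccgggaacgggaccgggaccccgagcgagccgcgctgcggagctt
Nfkbib (chr7:28766645-28766744, minus strand): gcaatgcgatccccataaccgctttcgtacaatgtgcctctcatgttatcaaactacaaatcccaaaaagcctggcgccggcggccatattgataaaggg

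In Nfkb2 and Rel, capitals of 11 bases are matches on both strands that overlap by all but 1 base. The matches nearest to the RefSeq start lay at positions -29 to -20 in Nfkbia, -12 to -3 in Tnfaip3 and -11 to -2 in Nfkb2. In Rel the nearest lay at -92 to -82 and in Nfkbie at -106 to -97, all counted back from that start. Both downstream windows of Nfkb2 held a match as well, and the second window of Tnfaip3 did not.

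Among the Rel subunits, Nfkb1 had the highest level in every library. Nfkb1 encodes the precursor of the p50 subunit, which has no transactivation domain of its own (ENSMUSG00000028163, chromosome 3, 135584655 to 135691547 of GRCm38). It had 24.4 TPM (Tom-) and 24.0 TPM (Tom+) in tumor #1, against 45.6 TPM (Tom-) and 45.8 TPM (Tom+) in tumor #2. The populations of a mouse were thus nearly level, and both libraries of tumor #2 lay above both of tumor #1. Rela, which encodes the main transactivating subunit of the canonical pathway (ENSMUSG00000024927, chromosome 19, 5637483 to 5648130), had 6.91 TPM (Tom-) and 7.54 TPM (Tom+) in tumor #1, against 10.3 TPM (Tom-) and 9.57 TPM (Tom+) in tumor #2. Rel, the c-Rel subunit that is abundant in lymphoid cells (ENSMUSG00000020275, chromosome 11, 23736847 to 23770970), had 4.02 TPM (Tom-) and 3.85 TPM (Tom+) in tumor #1, against 10.1 TPM (Tom-) and 9.86 TPM (Tom+) in tumor #2. Both Rela and Rel were higher in tumor #2 without overlap, and of these the gap was wider for Rel.

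The subunits of the alternative pathway had lower levels. Nfkb2, which encodes the precursor of the p52 subunit (ENSMUSG00000025225, chromosome 19, 46304320 to 46312385), had 1.23 TPM (Tom-) and 0.968 TPM (Tom+) in tumor #1, against 3.73 TPM (Tom-) and 3.90 TPM (Tom+) in tumor #2. Relb, its usual partner (ENSMUSG00000002983, chromosome 7, 19606217 to 19629438), had 1.23 TPM (Tom-) and 0.835 TPM (Tom+) in tumor #1, against 4.38 TPM (Tom-) and 5.02 TPM (Tom+) in tumor #2. In both genes the Tom+ value was the lower one in tumor #1 and the higher one in tumor #2. Nfkb2 overlaps Psd by 299 bases on the opposite strand, and Psd was at 0.0432 to 1.62 TPM.

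Among the inhibitors, Nfkbia had the highest level in every library. It encodes IkBα, the IkB protein that is rapidly resynthesized after NF-kB activation (ENSMUSG00000021025, chromosome 12, 55489410 to 55492647), and it had 5.73 TPM (Tom-) and 7.20 TPM (Tom+) in tumor #1, against 19.4 TPM (Tom-) and 29.8 TPM (Tom+) in tumor #2. It was higher in Tom+ cells of both mice, and the libraries of tumor #2 lay above those of tumor #1. Nfkbib encodes IkBβ (ENSMUSG00000030595, chromosome 7, 28758251 to 28767512) and had 5.16 TPM (Tom-) and 3.90 TPM (Tom+) in tumor #1, against 5.66 TPM (Tom-) and 3.05 TPM (Tom+) in tumor #2. It was the one member whose tumors overlapped, and it was lower in Tom+ cells of both mice. The locus of Nfkbib overlaps Sirt2 by 778 bases on the opposite strand, and Sirt2 was at 9.22 to 25.6 TPM. Whether strand was used in the quantification is not stated, so reads from the shared bases could have been assigned to either gene.

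Nfkbie encodes IkBε (ENSMUSG00000023947, chromosome 17, 45555703 to 45563169) and had 0.782 TPM (Tom-) and 0.843 TPM (Tom+) in tumor #1, against 4.004 TPM (Tom-) and 3.96 TPM (Tom+) in tumor #2. Nfkbiz encodes IkBζ, an inducible nuclear member of the family that modulates transcription in the nucleus (ENSMUSG00000035356, chromosome 16, 55811375 to 55838899), and it had 0.465 TPM (Tom-) and 1.44 TPM (Tom+) in tumor #1, against 2.34 TPM (Tom-) and 3.10 TPM (Tom+) in tumor #2. Tnfaip3 encodes A20, which dampens signaling to IKK and is inactivated in some human B cell lymphomas (ENSMUSG00000019850, chromosome 10, 19000910 to 19015657). Its level was 0.0770 TPM (Tom-) and 0.103 TPM (Tom+) in tumor #1, against 3.93 TPM (Tom-) and 3.32 TPM (Tom+) in tumor #2. Tnfaip3 was hence close to the bottom of the scale in both populations of tumor #1 and clearly above 1 TPM in both populations of tumor #2.

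**Figure D1:**
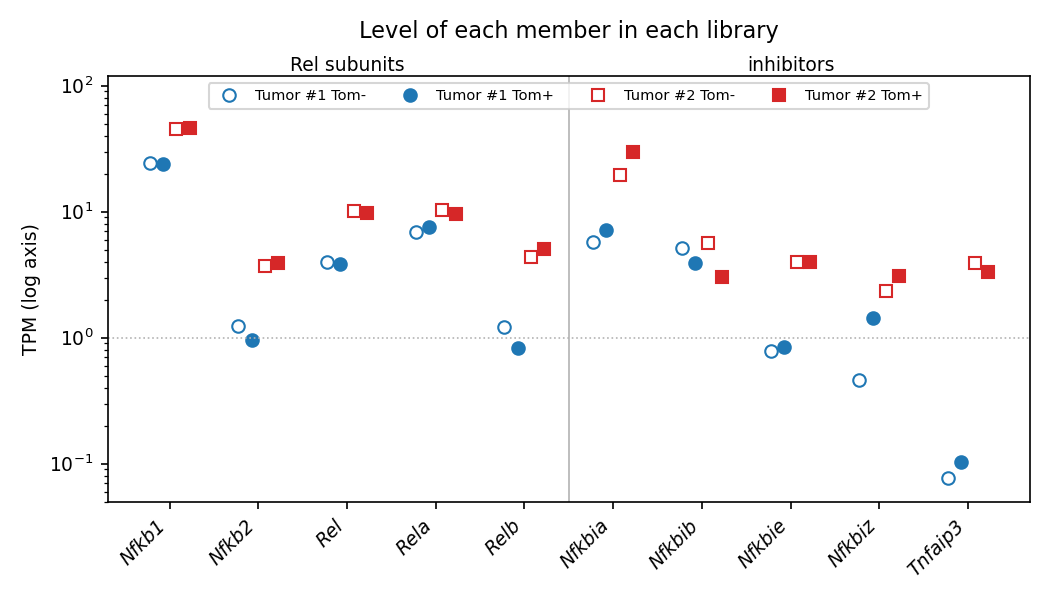
TPM (log axis) of the 10 members in the 4 libraries, 1 symbol per library, with a dotted line at 1 TPM. Squares (tumor #2) lie above circles (tumor #1) for 9 of 10 genes, Nfkbib being the exception, and Tnfaip3 shows the widest gap, from about 0.1 TPM in tumor #1 to between 3.32 and 3.93 TPM in tumor #2.

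In the order of levels, Nfkb1 stood apart in both mice. In tumor #1, Rela and Nfkbia followed with overlapping ranges, then Nfkbib and Rel, also overlapping, then Nfkb2, Relb and Nfkbie, each of which overlapped Nfkbiz, and Tnfaip3 lay below all. In tumor #2, Nfkbia took the second place without overlap, followed by Rela and Rel, which overlapped. Relb, Nfkbie, Nfkb2 and Tnfaip3 each overlapped Nfkbib, and Nfkbiz was last with a range that overlapped that of Nfkbib. Among the genes tested, the level of Nfkb1 lay between the 69.6th and the 79.8th percentile of a library. The percentile of Nfkbia was 37.0 (Tom-) and 42.0 (Tom+) in tumor #1, against 60.5 and 71.0 in tumor #2, and that of Tnfaip3 was 3.41 and 3.09, against 22.5 and 19.9.

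The study compared Tom+ with Tom- cells to ask how AID-experienced lymphoma cells differ from other cells of the same tumor. The Rel subunits were nearly level between the populations, and the larger differences were in Nfkbia, Nfkbiz and Nfkbib, but 0 of the 10 genes passed the test. The test was limma's, with each mouse serving as its own control. Adjusted p-values of the members were 0.936 to 0.997, and of all 11339 genes 0 (0%) passed 0.05 after adjustment with limma. The study itself reported differentially expressed genes between these populations, with edgeR on paired samples, a test that was not run here. At an unadjusted p-value below 0.05, 0 members were found, beside 4.67% of all genes tested. For 2 pairs an exact permutation test cannot give a p-value below 0.5. The populations are 2 per mouse with no further replicates, so a gene's own spread comes from how far 2 mice differ. Limma also draws on the spread of the other genes, with 2.21 prior degrees of freedom against 1 from the gene itself. Each p-value is therefore only in part about the 2 mice.

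Nfkbia had a log2 fold change of 0.44 in Tom+ cells (SE 0.19, 95% confidence interval -0.15 to 1.03, n = 2 mice; adjusted p = 0.936 from limma), made up of 0.29 in tumor #1 and 0.59 in tumor #2. Nfkbiz had a log2 fold change of 0.52 (SE 0.26, interval -0.28 to 1.32), with 0.74 in tumor #1 and 0.30 in tumor #2. Nfkbib had a log2 fold change of -0.52 (SE 0.23, interval -1.24 to 0.19), with -0.33 in tumor #1 and -0.72 in tumor #2. These were the 3 members with an absolute difference above 0.4, and each kept its sign in both mice and under every scaling of the libraries that was tried. Being higher in the Tom+ library of both mice applied to 21.6% of all genes and being lower in both to 29.5%, so the 2 members higher in both (Nfkbia and Nfkbiz) and the 2 lower in both (Nfkbib and Rel) were near the background.

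For the remaining 7 members the absolute log2 fold change was below 0.1. Nfkb1 had -0.0077 (SE 0.15, interval -0.46 to 0.44), the narrowest interval among the members. Rela had 0.0097 (SE 0.19), Rel -0.037 (SE 0.20), Relb -0.058 (SE 0.25), Nfkb2 -0.066 (SE 0.23), Nfkbie 0.018 (SE 0.23) and Tnfaip3 -0.080 (SE 0.24). Of these 7, all but Rel had opposite signs in the 2 mice. The median over the 10 members was -0.022, beside -0.033 over all genes tested.

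**Figure D2:**
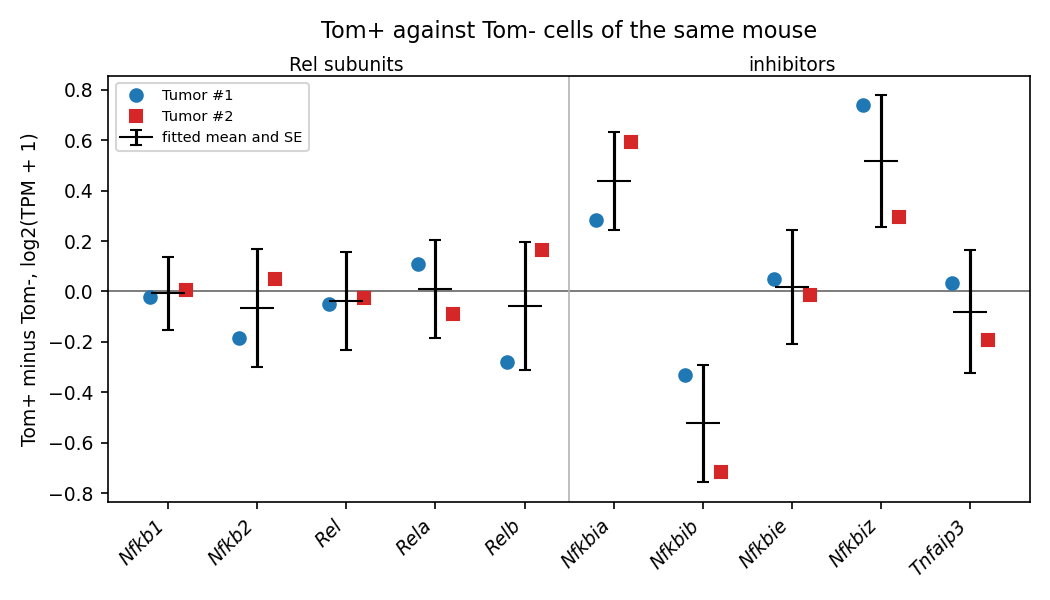
Tom+ minus Tom- difference on the log2(TPM + 1) scale for each member, in tumor #1 (circles) and tumor #2 (squares), with the fitted mean and its SE (black bars). The Rel subunits lie between -0.28 and 0.16, Nfkbia and Nfkbiz lie above 0 and Nfkbib lies below 0 in both mice, and 0 members passed the test.

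Other genes differed beside these. In tumor #1, where the difference of Nfkbiz was larger, the summed TPM of 15 immediate-early and stress genes was 72.2 in Tom- and 199 in Tom+ cells (Fos at 16.4 and 79.2 TPM, Fosb at 1.12 and 20.9 TPM), while it was 114 and 94.5 in tumor #2. In tumor #2, where the difference of Nfkbia was larger, the summed TPM of 8 plasma cell markers was 168 in Tom- and 373 in Tom+ cells, while it was 241 and 243 in tumor #1. In tumor #2, Jchain alone (1.24 and 209 TPM) differed by slightly more than the sum did, so the other markers together were slightly lower in Tom+ cells. Irf4 had 14.6 and 29.4 TPM, whereas Mzb1 (94.8 and 80.6 TPM) and Slamf7 (38.7 and 31.8 TPM) were lower in Tom+ cells. Prdm1, the regulator of plasma cell differentiation, was at no more than 0.570 TPM. Of the 8 B cell markers, 7 were lower in Tom+ cells of both mice and 0 were higher in both (29.5% and 21.6% of all genes tested). Their median log2 fold change was -0.24. Ms4a1, which encodes CD20, had -0.49 (unadjusted p = 0.0475, adjusted p = 0.936 from limma). The part of these genes in the differences of the members was not tested.

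The difference between the mice exceeded that between the populations for 9 of 10 members (76.5% of all genes), Nfkbib being the exception. Both tumor #2 libraries lay above both tumor #1 libraries for all 5 Rel subunits and for 4 of 5 inhibitors, 9 of 10 in all, beside 44.8% of all genes tested. For 0 members both libraries of tumor #2 lay below those of tumor #1, beside 23.7% of all genes. Since each tumor is 1 mouse and its 2 libraries are different populations of that mouse, these differences are a description without a test. With Nfkbie and Tnfaip3 left out, because the limit for testing requires them to be higher in tumor #2, 7 of 8 members lay above, beside 43.7% of the 9216 protein-coding genes with at least 1 TPM in at least 3 libraries. Taken separately, 10 of 10 members were higher in tumor #2 in the Tom- libraries (62.5% of all genes) and 9 of 10 in the Tom+ libraries (59.6%), a split chosen after seeing the data. Both counts include Nfkbie and Tnfaip3, which the limit for testing fixed to be higher in tumor #2 in each population.

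Tnfaip3 differed the most, by 2.08 on the log2(TPM + 1) scale (2.20 in Tom- and 1.97 in Tom+ cells), which was at the 95.7th percentile of all genes tested. On this scale Nfkbia followed with 1.76 (1.60 and 1.91), Relb with 1.49 (1.27 and 1.72) and Nfkbie with 1.46 (1.49 and 1.43). Nfkb2 differed by 1.20 (1.08 and 1.32) and Rel by 1.15 (1.14 and 1.16). These 6 members exceeded a log2 difference of 1, beside 16.8% of all genes tested. Without Nfkbie and Tnfaip3 it was 4 of 8, beside 11.7% of the protein-coding genes with at least 1 TPM in at least 3 libraries. With quantile normalization 3 of 10 exceeded it (Tnfaip3, Nfkbia and Relb). Nfkbiz had 0.97 (1.19 and 0.75), Nfkb1 0.89 (0.88 and 0.91) and Rela 0.41 (0.51 and 0.31), while Nfkbib had -0.080, with 0.11 in Tom- and -0.27 in Tom+ cells. As ratios of TPM, Nfkb1 was 1.87 and 1.91 times as high in tumor #2 in Tom- and Tom+ cells, Rel 2.50 and 2.56 times, and Nfkbia 3.39 and 4.14 times. The ratio was 5.12 and 4.70 for Nfkbie and 3.56 and 6.02 for Relb, so the order of the members after Tnfaip3 depends on the scale, and at a pseudocount of 0.1 Nfkbie (2.16) and Relb (2.10) exceeded Nfkbia (1.89). For Tnfaip3 the ratio was 51.1 and 32.3, over levels near 0.1 TPM in tumor #1.

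**Figure D3:**
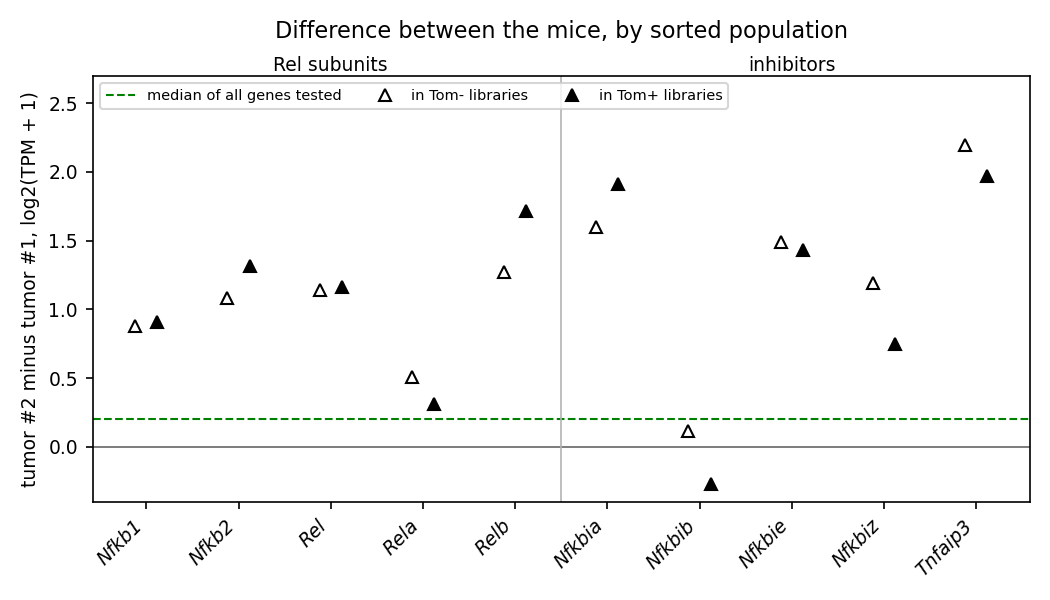
Tumor #2 minus tumor #1 on the log2(TPM + 1) scale for each member, in Tom- (open) and Tom+ (filled) libraries, with the median of all genes tested (dashed line, 0.20). In 9 genes both triangles lie above the dashed line, from 0.31 for Rela in Tom+ cells to 2.20 for Tnfaip3 in Tom- cells, and both triangles of Nfkbib lie below it.

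The libraries of the mice also differed in their makeup, with mitochondrial genes at 6.61% (Tom-) and 8.67% (Tom+) of TPM in tumor #1 against 14.4% and 15.6% in tumor #2, and pseudogenes at 31.3% and 30.3% against 25.4% and 23.4%. The median over all genes tested was 0.20 higher in tumor #2 with the TPM as deposited, -0.0056 with trimmed-mean scaling, -0.078 with quantile normalization and 0.31 when TPM was rescaled over protein-coding genes. Relative to that shift, the median of the members was 0.97, 0.98, 0.83 and 1.08 higher in tumor #2. These medians include Nfkbie and Tnfaip3, which the limit for testing fixed to be higher in tumor #2. With the TPM as deposited and the shift not subtracted, the median was 1.17 over all members and 1.06 without these genes. With quantile normalization 7 of 10 members lay above, since Rela and Nfkbiz then overlapped between the mice. The B cell markers were higher in tumor #2 as well, with 8 of 8 above without overlap, beside 44.8% of all genes tested. Their median log2 difference was 1.29. Their summed levels were 1051 TPM (Tom-) and 1001 TPM (Tom+) in tumor #1 against 2654 and 2058 TPM in tumor #2. Summed over their lists, T cell markers had 5.85 to 8.51 TPM in tumor #1 and 15.5 to 18.9 TPM in tumor #2 (8 genes), macrophage and monocyte markers 13.0 to 15.2 TPM and 26.2 to 28.1 TPM (8 genes), and erythroid markers 17.6 to 21.5 TPM and 0.619 to 0.967 TPM (6 genes). Lck was the largest part of each T cell sum, and Ly6c2 of each macrophage and monocyte sum. Of the T cell list, Trac went the other way, with 0.767 TPM (Tom-) and 1.09 TPM (Tom+) in tumor #1 and 0 in tumor #2. So did Cd5, with 0.138 and 0.112 TPM against 0. C1qa and C1qb of the macrophage list were at 0 in all libraries. Neutrophil markers (6 genes) summed to no more than 5.56 TPM and NK cell markers (5 genes) to no more than 0.978 TPM. The part of these markers in the members' differences was not tested.

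Set beside the promoters shown above, the 5 genes with a kappaB match differed between the mice by 1.15 or more (Rel) and up to 2.08 (Tnfaip3), while the 2 without a match, Rela and Nfkbib, differed by 0.41 and -0.080. Nfkbie and Tnfaip3 are among the 5, and the limit for testing fixed them to be higher in tumor #2. The range without them was 1.15 to 1.76 over 3 genes. For the 3 members without a window, the difference was 1.49 (Relb), 0.97 (Nfkbiz) and 0.89 (Nfkb1). Whether a match goes with the difference between the mice was not tested. Over the 8050 tested genes with a RefSeq window, the median difference was 0.23 for the 958 with a match and 0.19 for the 7092 without, and 48.0% and 45.5% lay above in both libraries of tumor #2.

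Nfkb1 held most of the summed TPM of the Rel subunits in every library, and the share of every subunit differed between the mice without overlap. Such separation was common for levels, with 44.8% of all genes tested above and 23.7% below in both libraries of tumor #2. The shares of a library also add up to the whole, so they are not independent of each other. Nfkb1 made up 64.5% of the summed TPM of the 5 subunits in both populations of tumor #1 and 61.6% and 61.8% in Tom- and Tom+ cells of tumor #2. The share of Rela was 18.3% and 20.3% in tumor #1 and 13.9% and 12.9% in tumor #2, whereas that of Rel was 10.7% and 10.4% against 13.6% and 13.3%. Relb had 3.25% and 2.24% in tumor #1 and 5.91% and 6.77% in tumor #2. These shares are taken within a library, so a single scaling factor per library leaves them as they are, which quantile normalization does not. In tumor #1 Rela exceeded Rel, and in tumor #2 the levels of Rela and Rel were about the same.

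The makeup of the inhibitors varied more. Nfkbib made up 42.2% and 28.9% of the summed TPM of the 5 inhibitors (Tom- and Tom+) in tumor #1 and 16.01% and 7.06% in tumor #2. Nfkbia made up 46.9% and 53.4% in tumor #1, and 54.9% and 68.9% in tumor #2. Tnfaip3 had 0.631% and 0.761% in tumor #1 and 11.1% and 7.67% in tumor #2. In both mice the share of Nfkbia was higher and that of Nfkbib was lower in Tom+ cells. The summed TPM of the inhibitors was 0.323 and 0.363 times that of the subunits in tumor #1 and 0.478 and 0.583 times in tumor #2.

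**Figure D4:**
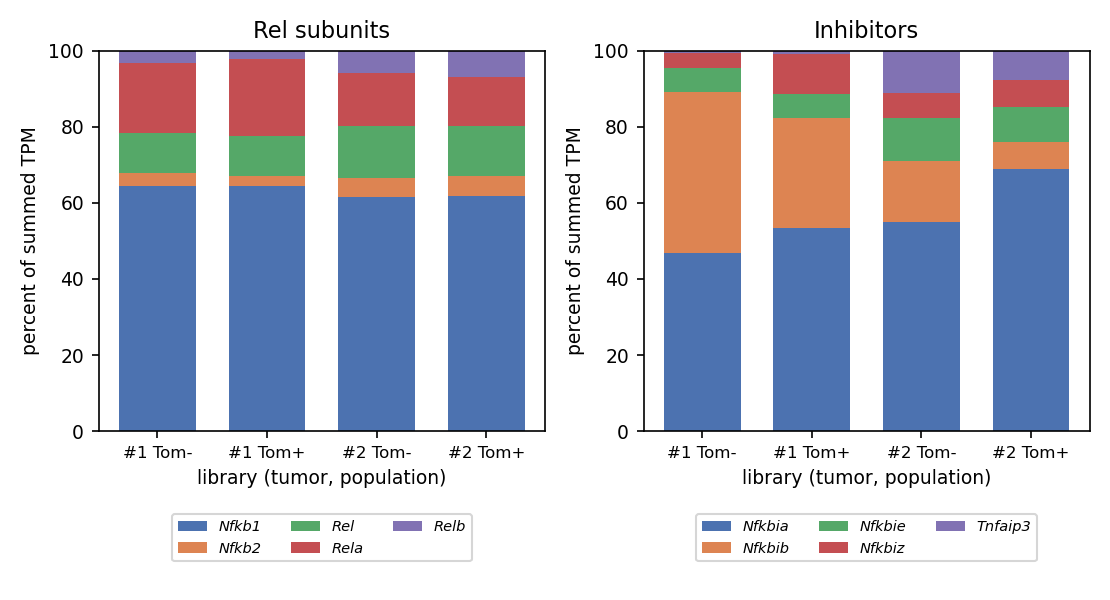
Share of each gene in the summed TPM of the 5 Rel subunits (left) and of the 5 inhibitors (right), 1 bar per library, in percent. Nfkb1 holds between 61.6% and 64.5% of subunit TPM in every library, while Nfkbib ranges from 42.2% of inhibitor TPM in Tom- cells of tumor #1 to 7.06% in Tom+ cells of tumor #2.

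Other genes of the pathway were taken from 4 lists of 64 different genes in all, 54 of which were tested. Between Tom+ and Tom- cells, 0 of the 54 had an adjusted or an unadjusted p-value below 0.05 with limma, the Tom+ library was the higher one in both mice for 7 and the lower one for 19 (21.6% and 29.5% of all genes tested), and the median log2 fold change was -0.080. Between the mice, 36 lay above and 6 below in both libraries of tumor #2, with a median log2 difference of 0.47, beside 44.8%, 23.7% and 0.20 for all genes tested. Among these, 5 were tested through tumor #2 alone and so had to lie above. Of the 49 with at least 1 TPM in at least 3 libraries, 31 lay above and 6 below, with a median of 0.44, beside 43.7% above among protein-coding genes of that kind.

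Among IKK and its upstream kinases, 12 of 12 were tested, with Tom+ above Tom- in both mice for 1 gene and below for 6 (21.6% and 29.5% of all genes), at a median of -0.098. Ikbke, which encodes an IKK-related kinase, had 0.624 TPM (Tom-) and 1.27 TPM (Tom+) in tumor #1, against 3.31 TPM (Tom-) and 4.83 TPM (Tom+) in tumor #2 (Tom+ minus Tom- 0.46 on the log2 scale, SE 0.23, adjusted p = 0.936). Tbk1, which encodes a related kinase, had 40.0 TPM (Tom-) and 22.4 TPM (Tom+) in tumor #1, against 35.1 TPM (Tom-) and 33.0 TPM (Tom+) in tumor #2 (Tom+ minus Tom- -0.45 on the log2 scale, SE 0.25). Between the mice 8 of the 12 lay above and 0 below in tumor #2 (44.8% and 23.7% of all genes), with a median of 0.42. Prkcb, a protein kinase C that acts downstream of the B cell receptor, had 59.3 TPM (Tom-) and 53.7 TPM (Tom+) in tumor #1, against 135 TPM (Tom-) and 125 TPM (Tom+) in tumor #2, a log2 difference of 1.19.

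Ubiquitin ligases, deubiquitinases and their adaptors were 12, all of them tested, with Tom+ above Tom- in both mice for 0 and below for 5 (21.6% and 29.5% of all genes). In tumor #2, 10 lay above and 1 below (44.8% and 23.7% of all genes), with a median of 0.52. Sharpin, a subunit of the linear ubiquitin ligase, had 71.6 TPM (Tom-) and 64.6 TPM (Tom+) in tumor #1, against 112 TPM (Tom-) and 78.7 TPM (Tom+) in tumor #2 (Tom+ minus Tom- -0.32 on the log2 scale, SE 0.16, adjusted p = 0.936). Tnip1, which encodes a partner of A20, had a log2 fold change of 0.22 (SE 0.26) and a log2 difference between the mice of 1.08. For Tnip2, which encodes another partner of A20, the difference between the mice was 0.69.

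Among other IkB family members and cofactors, 10 of 10 were tested, with Tom+ above Tom- in both mice for 2 and below for 3, and 4 lay above and 2 below in tumor #2. These counts were near the shares of all genes (21.6% and 29.5%, then 44.8% and 23.7%), and Bcl3, one of the 4, was tested through tumor #2 alone. Bcl3, an atypical IkB protein that coactivates dimers of p50 or p52, had 0.249 TPM (Tom-) and was listed at 0 (Tom+) in tumor #1, against 3.64 TPM (Tom-) and 13.98 TPM (Tom+) in tumor #2. Its log2 difference between the mice was 2.90, and its log2 fold change of 0.69 in Tom+ cells (SE 0.61, adjusted p = 0.936) came from opposite signs in the tumors. Nfkbid, another nuclear IkB protein, had 1.904 TPM (Tom-) and 2.95 TPM (Tom+) in tumor #1, against 7.23 TPM (Tom-) and 7.65 TPM (Tom+) in tumor #2, a log2 difference of 1.32. Rnf25, a ubiquitin ligase that binds RelA, had a log2 fold change of -0.44 (SE 0.28), mostly from tumor #1 (-0.85, and -0.021 in tumor #2).

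The list of NF-kB target genes held 32 genes, 22 of them tested, with Tom+ above Tom- in both mice for 5 and below for 5 (21.6% and 29.5% of all genes), at a median of 0.027. In tumor #2, 16 lay above and 3 below (44.8% and 23.7% of all genes), with a median of 0.78. Of the 16, 5 (Bcl3, Bcl2a1b, Ccnd2, Lta and Map3k8) were tested through tumor #2 alone, and of the 17 with at least 1 TPM in at least 3 libraries 11 lay above and 3 below, with a median of 0.46. Ccnd2, which encodes cyclin D2, had 0.249 TPM (Tom-) and 0.134 TPM (Tom+) in tumor #1, against 17.7 TPM (Tom-) and 7.43 TPM (Tom+) in tumor #2, a log2 difference of 3.40. Ltb, which encodes lymphotoxin β, had 1.25 TPM (Tom-) and 0.724 TPM (Tom+) in tumor #1, against 20.2 TPM (Tom-) and 13.9 TPM (Tom+) in tumor #2, a log2 difference of 3.18. In Tom+ cells Ccnd2 had a log2 fold change of -0.65 (SE 0.36) and Ltb of -0.45 (SE 0.21), both with an adjusted p-value of 0.936 from limma. Birc3, which encodes an inhibitor of apoptosis and was named after its values were seen, had 25.4 TPM (Tom-) and 22.8 TPM (Tom+) in tumor #1, against 149 TPM (Tom-) and 156 TPM (Tom+) in tumor #2. The list was not uniform, since the tumor difference ranged from -1.29 to 3.40.

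**Figure D5:**
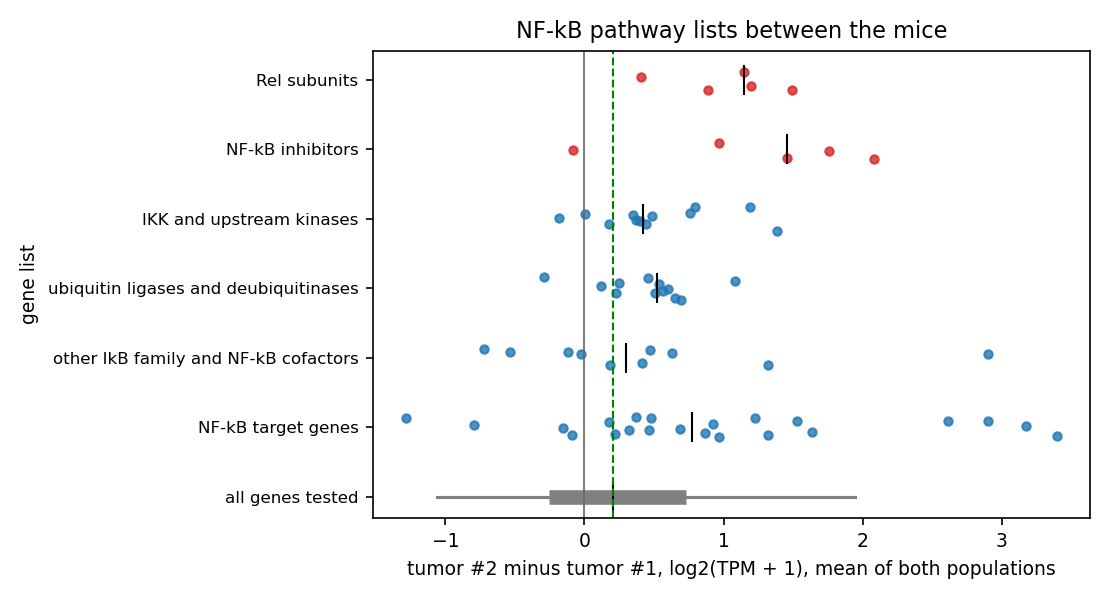
Tumor #2 minus tumor #1 on the log2(TPM + 1) scale, averaged over both populations, for each tested gene (points, jittered vertically) of the members (red) and 4 pathway lists (blue), with the list medians (black ticks). The gray bar spans the 25th to 75th and the line the 5th to 95th percentile of all genes tested, and the dashed line is their median of 0.20. The medians of the Rel subunits (1.15), the inhibitors (1.46) and the target genes (0.78) lie above the gray bar, which ends at 0.73. The median of the target genes is 0.46 without the 5 genes tested through tumor #2 alone. That of the inhibitors is the value of Nfkbie, which like Tnfaip3 was tested through tumor #2 alone. The other inhibitors had 1.76 (Nfkbia), 0.97 (Nfkbiz) and -0.080 (Nfkbib).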

How the data were processed

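RNA of sorted splenic lymphoma cells was sequenced by the authors as single reads, trimmed with Cutadapt and assigned with Salmon 1.9 to GRCm38 transcripts (tools per the submitters' processing notes, which also name CASAVA 1.8). The authors deposited 1 table of TPM for 34866 genes and 4 libraries. Each library sums to 1000000 TPM, and how transcripts were summed to genes is not given in the sources used here. GENCODE M21 held 34652 of the identifiers and gave symbols and positions.

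From the table, log2(TPM + 1) was computed for genes with at least 1 TPM in at least 2 libraries. Tom+ and Tom- cells were compared with limma 3.58.1 (R 4.3.3), with the tumor as a block because its libraries come from the same mouse, a variance trend, and Benjamini-Hochberg adjustment over all genes tested with a threshold of 0.05. Deviations of a tumor's libraries from their group means correlated across genes (Pearson's r = 0.626). Each fit has 1 residual degree of freedom. The authors' test, edgeR on paired samples, needs counts and was not run. The mice were compared without a test. Confidence intervals use the 3.21 total degrees of freedom of the moderated test. The script was tested on simulated data. Tables were handled with Python 3.11.15 and pandas 2.3.3, and plots drawn with matplotlib 3.10.9.

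The members, the gene lists and the tests were chosen with earlier results of these data known, and 1 further pathway list is not reported here. The genes named are all members and, from each pathway list, those with an unadjusted p-value below 0.05, the 2 with the largest absolute difference between populations and the 2 with the largest between the mice. Alternatives were a fit that ignores the tumor, a smaller pseudocount (0.1 or 0.5), all genes unfiltered or those averaging 5 TPM or more, trimmed-mean or quantile scaling, TPM rescaled over protein-coding genes outside the mitochondrial genome and immunoglobulin loci, no variance trend, a robust prior, and each tumor left out.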

Additional observations from a re-analysis of the deposited data

Results flagged for a closer look

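In 6 members the Tom+ minus Tom- difference had opposite signs in the 2 mice. With 1 pair per mouse the difference between the mice was not tested. Tumor #2 minus tumor #1 of that difference, on the log2(TPM + 1) scale, was 0.027 for Nfkb1, 0.23 for Nfkb2, -0.20 for Rela, 0.44 for Relb, -0.061 for Nfkbie and -0.23 for Tnfaip3. Among the pathway genes named, it was -0.55 for Tnip1, 0.81 for Tnip2 and 2.01 for Bcl3.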

How the results depend on the processing

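Under every alternative run with a test, 0 genes and 0 members had an adjusted p-value below 0.05 with limma. The number of genes with an unadjusted p-value below 0.05 was 530, and it moved most without the tumor block, to 140, which is also the fit without the pairing; the block changed no other call. The median of the members, -0.022, was -0.015 with a pseudocount of 0.1, 0.00098 at a mean TPM of at least 5 (4 members tested), 0.0043 with trimmed-mean scaling, 0.031 over protein-coding genes, and between -0.0032 and 0.0065 with a tumor left out. The sign turned for Nfkb1 with trimmed-mean scaling (0.020), quantile normalization (0.022) and protein-coding genes (0.048), for Rel with protein-coding genes (0.013) and for Nfkbie with quantile normalization (-0.031). With a tumor left out, values ranged from -0.021 to 0.0056 for Nfkb1, -0.18 to 0.050 for Nfkb2, -0.090 to 0.11 for Rela, -0.28 to 0.16 for Relb, -0.012 to 0.049 for Nfkbie and -0.19 to 0.034 for Tnfaip3. Left-out tumors gave list medians of -0.27 to -0.091 for the kinases, -0.089 to -0.034 for the cofactors (-0.030 over protein-coding genes) and -0.046 to 0.040 for the targets. Between the mice no member changed sign over 50 alternatives, 16 of which moved the value by less than the spread between populations and 34 by more, and at a mean TPM of at least 5 the count lying above was 4 of the 4 members tested. Tnfaip3 went from 2.08 to 4.29 at a pseudocount of 0.1 and, with quantile normalization, Rela from 0.41 to 0.062, Nfkbiz from 0.97 to 0.44, Nfkb2 from 1.20 to 0.74, Rel from 1.15 to 0.77 and Nfkbib from -0.080 to -0.50. At a pseudocount of 0.1 Nfkbiz was 1.58. With trimmed-mean scaling Rela was 0.19 and Nfkbib -0.27, and over protein-coding genes Nfkbib was -0.019. The 6 members above a log2 difference of 1 became 3 with quantile normalization and 2 at a mean TPM of at least 5, a count over settings made after seeing the data. The cause of these changes was not tested, and the unknown depth limits all genes below 1 TPM.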
